A study of Mus musculus with 30 samples.

Results

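The 10 genes described here, Mpeg1, Wfdc17, Lyz2, Ms4a7, Ctss, Hal, Trem2, Cd68, Gpnmb and Lgals3, are genes of phagocytic macrophages measured in mouse quadriceps. They are 10 of the 56748 genes in the table and were selected on the measurements themselves, either because they were higher in mice given 21.2 mg/kg pacDNA-L9 than in nontreated mice or because they belong to the same lipid-laden phagocyte state. Poly(A)-enriched RNA was sequenced in 30 libraries, each taken here as 1 mouse. WT mice (n = 5) were of the FVB/N strain. The other groups were all HSA-LR20b mice, a myotonic dystrophy type 1 (DM1) model that carries a human skeletal actin transgene with a long CTG repeat under its own muscle promoter, and they were nontreated (NT, n = 8) or injected into the tail vein at 8 weeks of age. pacDNA-L9 is L9, a locked nucleic acid oligonucleotide complementary to the CUG repeat, attached to a bottlebrush polymer of polyethylene glycol, and 4 mice received 5.3 mg/kg of it, 3 others a total of 21.2 mg/kg and 3 a total of 42.4 mg/kg. WT and NT mice are listed at the same age of 8 weeks. The higher doses were reached by repeated injections, so that dose and number of injections cannot be told apart. The study spread these injections over 2 weeks. Mice at the higher doses were therefore also older than those at 5.3 mg/kg when muscle was taken. Of the remaining mice 3 received free L9, without the polymer, at 5.3 mg/kg, 2 received 40 nmol of the polymer without an oligonucleotide (Brush) and 2 received the polymer with a scrambled oligonucleotide (pacDNA-Scr), also at 5.3 mg/kg. Muscle was taken 2 weeks after the last injection.

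Macrophages clear dying cells, debris and foreign particles by engulfing them and degrading the cargo in lysosomes. Trem2 is a surface receptor that binds lipids and signals through the adaptor Tyrobp, and it is a hallmark of macrophages that have taken up much lipid, as are Gpnmb and Lgals3. Among the other genes, Mpeg1 encodes perforin-2, a pore-forming protein of phagosomes, Ctss a lysosomal cysteine protease that also processes the invariant chain of MHC class II, Cd68 a glycoprotein of the lysosomal membrane, and Lyz2 the lysozyme of myeloid cells. Ms4a7 encodes a membrane-spanning protein of the MS4A family found in macrophages, Wfdc17 a small secreted WAP-domain protein and Hal histidine ammonia-lyase, which converts histidine to urocanate.

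All 10 genes have an upstream region in the RefSeq promoter table (GRCm38.p6), which was searched on both strands over the 250 bases before the start for letters bound by factors of this lineage. AP-1 letters (TGANTCA) were found for 4 of the 10 genes, Ms4a7, Hal, Trem2 and Cd68, and for 7.82% of the 27025 genes in the table. The letter at N was G in the matches of Cd68, A in that of Trem2 and T in those of Ms4a7 and Hal. Ms4a7 has another region in the table that holds no match. PU.1 letters (GAGGAAGT, present in 2.79% of all genes), the related AGAGGAAG (4.27%) and CLEAR letters (CACGTGAC, 2.11%) were found for none of the 10. The regions of Trem2 and Cd68 are shown because they hold AP-1 letters close to the start, and that of Mpeg1, the gene that separated the mice most clearly, because it holds none of the letters searched. Each runs 5′ to 3′ on the strand of its gene, with the matched letters in capitals.
Mpeg1, chr19:12460520-12460769, plus strand: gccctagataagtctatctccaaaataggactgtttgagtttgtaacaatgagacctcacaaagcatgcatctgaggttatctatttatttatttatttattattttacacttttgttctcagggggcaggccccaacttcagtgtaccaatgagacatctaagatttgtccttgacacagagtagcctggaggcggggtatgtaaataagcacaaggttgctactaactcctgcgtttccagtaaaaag
Trem2, chr17:48346151-48346400, plus strand: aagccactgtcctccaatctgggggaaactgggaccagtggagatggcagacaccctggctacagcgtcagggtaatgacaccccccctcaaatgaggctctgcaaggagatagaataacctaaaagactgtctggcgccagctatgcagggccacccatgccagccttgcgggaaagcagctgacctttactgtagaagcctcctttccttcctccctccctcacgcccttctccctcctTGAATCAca
Cd68, chr11:69666171-69666420, minus strand: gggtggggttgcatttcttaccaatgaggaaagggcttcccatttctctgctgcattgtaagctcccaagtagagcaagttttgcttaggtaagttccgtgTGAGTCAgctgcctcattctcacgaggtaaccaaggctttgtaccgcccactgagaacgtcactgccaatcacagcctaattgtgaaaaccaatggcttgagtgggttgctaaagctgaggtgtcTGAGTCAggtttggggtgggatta
The match for Trem2 began 9 bases before the start, and those for Cd68 began 149 and 24 bases before it. A match is a description of the letters and not a measured binding site.

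Libraries held 13605309 to 26956558 counts on genes. Summed muscle fibre markers ran from 96310 to 169200 CPM in all groups, where CPM stands for counts scaled to library size by edgeR after TMM normalization. The library numbering in the labels restarts once, which gives sets of 24 and 6 libraries. The second set holds 2 NT mice, 2 mice at 5.3 mg/kg, 1 at 21.2 mg/kg and 1 given free L9. Of its 6 libraries 5 list all 37 mitochondrial genes at 0. The exception is free L9 mouse C, with 1628217 mitochondrial counts and the lowest total of all libraries, 13605309. Its column name is built like those of the first set. In the first set, 9 libraries have a column named by group and running number alone, among them all 3 mice at 42.4 mg/kg but only 1 NT mouse. The library of free L9 mouse B stood apart with 14436 genes detected at equal depth, against up to 21104 in other libraries. All 3 mice at 42.4 mg/kg were female by their counts of sex-linked genes, against 4 of 8 NT mice. Results that rest on the sets and on the kinds of column name are given within them below. For free L9 mouse B results without it are given. For sex only values with it as a covariate are given, and none within a sex. The labels list each library as a sample of its own without stating that each came from a separate animal, so p-values measure the spread between these samples.

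The selected genes differed widely in level. On the scale of mean CPM per kilobase of exon in NT mice, Lyz2 had the highest level of the 10 at 8.90 and Ms4a7 the lowest at 0.114. On the same scale Lyz2 reached 49.4, Cd68 16.8, Lgals3 10.2 and Mpeg1 6.13 at 42.4 mg/kg, while Trem2, the receptor, was the lowest there at 0.769. Counts behind single values ran from 1, for Wfdc17 in free L9 mouse C, to 3824, for Lyz2 in a mouse given 42.4 mg/kg. In bulk tissue a change in the number of macrophages and a change in the RNA of each macrophage cannot be told apart.

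Mpeg1 gave the clearest separation between mice that did and did not receive the polymer. In WT mice its level was 1.75, 3.43, 2.71, 2.90 and 1.70 CPM, and in the 8 NT mice it ran from 1.40 through a median of 3.68 to 5.48 CPM. The 3 mice given free L9 had 1.66, 2.58 and 2.59 CPM. These values overlapped with each other, and every mouse given the polymer lay above all of them. Mice given pacDNA-Scr had 5.74 and 9.26 CPM and mice given Brush 12.8 and 9.37 CPM. With pacDNA-L9 the level was 11.8, 7.76, 14.1 and 12.2 CPM at 5.3 mg/kg, 7.83, 20.6 and 36.3 CPM at 21.2 mg/kg and 26.5, 34.8 and 19.0 CPM at 42.4 mg/kg. The lowest of these, pacDNA-Scr mouse A at 5.74 CPM, was close to the highest NT mouse.

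**Figure D1:**
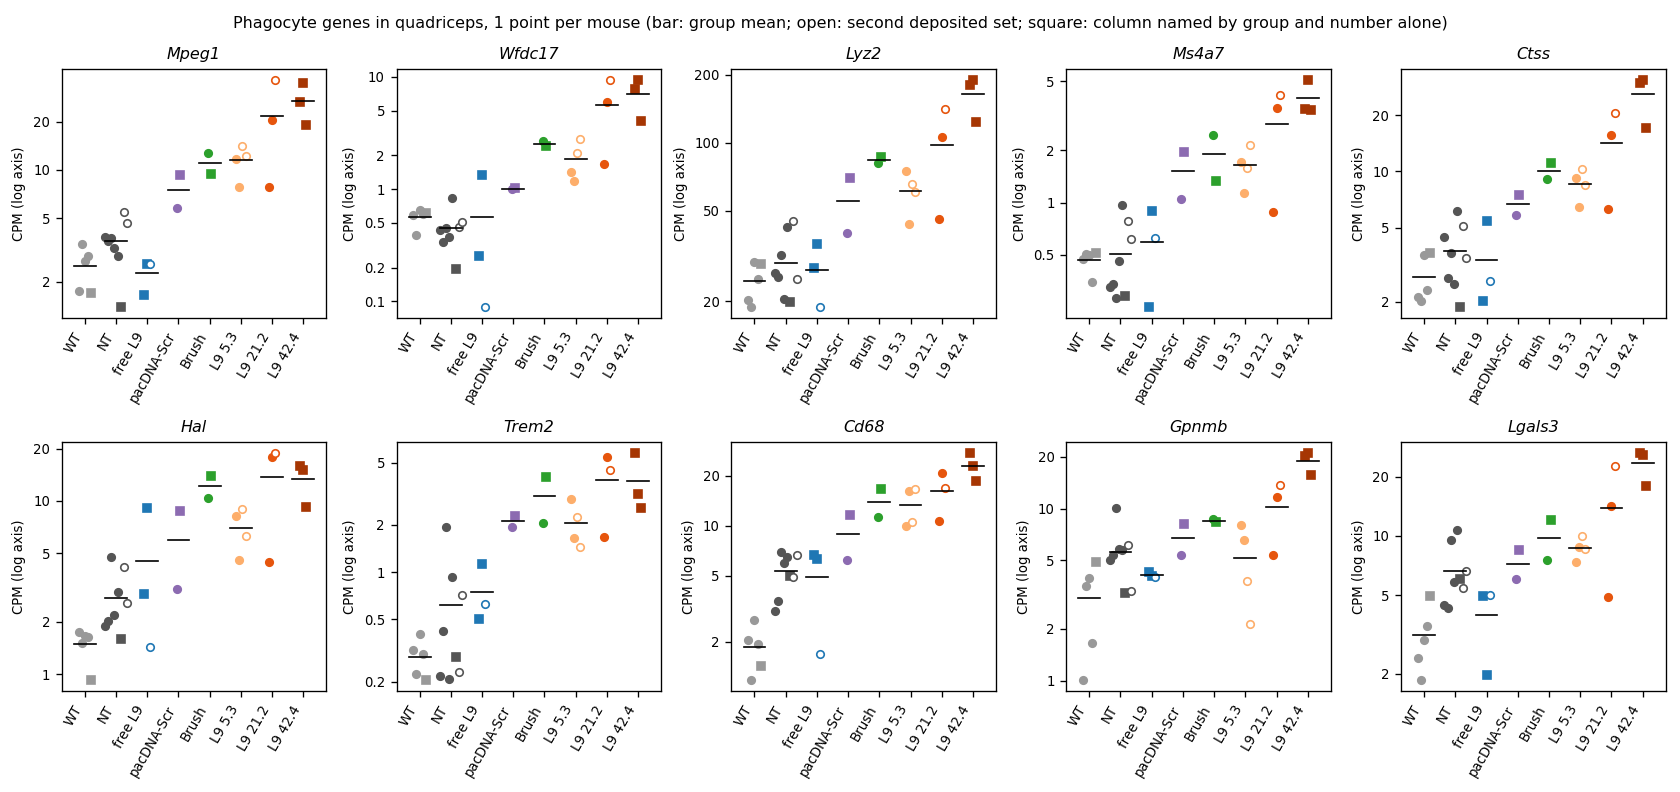
Level of each of the 10 genes in every mouse, in CPM on a log axis, by group, with L9 5.3, 21.2 and 42.4 standing for pacDNA-L9 in mg/kg. Bars are group means, open symbols the second deposited set and squares the libraries whose column is named by group and number alone. The 3 mice at 42.4 mg/kg lie above all NT and free L9 mice for all 10 genes, and for Mpeg1 and Ms4a7 alone so do all mice given 5.3 mg/kg, Brush or pacDNA-Scr.

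Ms4a7 was measured at lower levels. WT mice had 0.350 to 0.514 CPM, NT mice 0.284 to 0.970 CPM and free L9 mice 0.252, 0.898 and 0.626 CPM. The lowest polymer values were 0.888 CPM, in mouse A at 21.2 mg/kg, and 1.05 CPM, in a pacDNA-Scr mouse. The first of these lies within the NT range. The 42.4 mg/kg mice had 3.47, 5.08 and 3.41 CPM, on 74 to 88 counts.

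Wfdc17 was very low in mice without polymer and had the widest range of the 10 in fold terms. NT mice had 0.193 to 0.837 CPM, on 4 to 19 counts, and WT mice 0.393 to 0.652 CPM. The level at 42.4 mg/kg was 7.79, 9.33 and 4.07 CPM, with Brush 2.66 and 2.43 CPM and with pacDNA-Scr 0.996 and 1.02 CPM. The free L9 mice were spread over 0.252, 1.35 and 0.0894 CPM, and mouse B, whose library stood apart, overlapped the pacDNA-Scr mice and the lowest mouse at 5.3 mg/kg, at 1.18 CPM.

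Lyz2, the most abundant, was at 19.8 to 45.1 CPM in NT mice and at 28.0, 35.9 and 18.9 CPM in free L9 mice. It reached 179, 189 and 124 CPM at 42.4 mg/kg. Brush mice had 81.6 and 86.4 CPM, above the mean of 61.3 ± 13.1 CPM (SD, n = 4) at 5.3 mg/kg. The lysosomal protease gene Ctss behaved alike, with 1.88 to 6.17 CPM in NT mice, 2.01, 5.39 and 2.59 CPM in free L9 mice, 9.12 and 11.1 CPM with Brush and 29.6, 30.9 and 17.1 CPM at 42.4 mg/kg. For both genes the lowest polymer mice overlapped the highest NT mice.

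Trem2 lay at or below 0.926 CPM in 7 of 8 NT mice and at 1.93 CPM in NT mouse 3. Free L9 mice had 0.503, 1.12 and 0.626 CPM. The polymer groups ran from 1.44 CPM, in mouse D at 5.3 mg/kg, to 5.72 CPM, in mouse A at 42.4 mg/kg, so that only NT mouse 3 reached into them. Mouse B at 21.2 mg/kg, with 5.42 CPM, was the only other mouse above 5 CPM.

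Cd68, the lysosomal membrane glycoprotein, ran from 3.09 through a median of 5.46 to 6.99 CPM in NT mice and was at 6.69, 6.34 and 1.70 CPM in free L9 mice. It was at 9.95, 16.2, 10.5 and 16.6 CPM at 5.3 mg/kg, 11.2 and 16.8 CPM with Brush and 6.21 and 11.6 CPM with pacDNA-Scr. At 42.4 mg/kg the 3 mice had 27.4, 23.1 and 18.6 CPM. Of the polymer mice pacDNA-Scr mouse A alone lay within the NT range.

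Hal, the histidine-degrading enzyme, overlapped more. NT mice ran from 1.59 through 2.37 to 4.72 CPM, and free L9 mouse B had 9.15 CPM against 2.92 and 1.43 CPM in the other free L9 mice. Brush mice had 10.4 and 14.0 CPM, as high as the 15.8, 15.0 and 9.26 CPM at 42.4 mg/kg, whereas pacDNA-Scr mice were at 3.10 and 8.73 CPM and the 4 mice at 5.3 mg/kg at 4.58 to 9.03 CPM. The pacDNA-Scr mice thus differed from each other by more than the whole spread of the NT mice.

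Gpnmb and Lgals3, which entered the selection for their state and not for their change at 21.2 mg/kg, differed from the rest at the low dose. Gpnmb had 8.02, 6.59, 3.79 and 2.13 CPM at 5.3 mg/kg, within and below the NT range of 3.23 to 10.1 CPM, and 20.3, 21.0 and 15.7 CPM at 42.4 mg/kg. Brush mice had 8.66 and 8.32 CPM and pacDNA-Scr mice 5.39 and 8.10 CPM of Gpnmb, also within the NT range. Lgals3 had 7.42 to 9.96 CPM at 5.3 mg/kg, within the NT range of 4.33 to 10.8 CPM, and 26.3, 25.9 and 18.0 CPM at 42.4 mg/kg. For Lgals3 1 Brush mouse, at 12.0 CPM, exceeded the NT range, and the other Brush mouse and both pacDNA-Scr mice were inside it. Free L9 mice had 4.98, 1.96 and 5.01 CPM of Lgals3 and 4.28, 4.04 and 4.02 CPM of Gpnmb.

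Summed over the 10 genes, where Lyz2 carries most of the total, the level was 39.7 to 80.3 CPM in NT, 32.6 to 48.9 CPM in WT and 37.6, 51.5 and 68.7 CPM in free L9 mice. It was 76.3 and 129 CPM with pacDNA-Scr, 98.0 to 135 CPM at 5.3 mg/kg, 149 and 166 CPM with Brush, 89.8 to 288 CPM at 21.2 mg/kg and 232 to 357 CPM at 42.4 mg/kg. By group mean WT, NT and free L9 were the lowest 3 groups for every gene but Gpnmb, for which 5.3 mg/kg lay below NT, and for most of the 10 genes these 3 groups overlapped.

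The contrast used for the selection, 21.2 mg/kg against NT, is given as a description only. In the fit over all libraries 9 of 17518 genes (0.0514%) were higher at an adjusted p under 0.05, of which 8 are among the 10, and the other is Hpse, the gene of heparanase. Their log2 fold changes ran from 1.60 for Cd68 to 3.63 for Wfdc17, and those of Gpnmb and Lgals3, outside the threshold, were 0.88 and 1.06. The member just inside the threshold was Cd68 (adjusted p = 0.0426), and the gene just outside it was Lilrb4b (adjusted p = 0.0874). The 3 mice did not respond alike. Mouse A was the lowest of them for all 10 genes, with 7.83 CPM of Mpeg1 against 20.6 CPM in mouse B and 36.3 CPM in mouse C.

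At 42.4 mg/kg, a group that the selection rule did not use, all 10 genes were higher than in NT mice. The quasi-likelihood test of edgeR called 336 of 17518 genes higher (1.92%) and 114 lower in this comparison, and the median log2 fold change was 2.54 over the 10 genes and -0.06 over all genes. Wfdc17 rose most, with a log2 fold change of 3.95 ± 0.47 (SE, adjusted p = 1.31e-05). The membrane and phagosomal genes Ms4a7 and Mpeg1 rose by 2.95 ± 0.40 and 2.89 ± 0.32, and Mpeg1 had an adjusted p of 6.43e-06. Ctss rose by 2.79 ± 0.32, the receptor Trem2 by 2.62 ± 0.50 and Lyz2 by 2.47 ± 0.27. Hal, Cd68, Lgals3 and Gpnmb rose by 2.27, 2.11, 1.82 and 1.76, and Gpnmb had the largest adjusted p of the 10, 0.00707. The NT mice of this comparison also entered the selection, and the genes were chosen with earlier results of these data known. These tests are therefore not independent of the selection. The same holds for the other comparisons with NT mice below. All 3 mice lay above all 8 NT and 3 free L9 mice for all 10 genes, as did 505 genes in all (2.88%). Without mouse B at 42.4 mg/kg the number of genes called higher fell to 52 and 9 of the 10 were still called, all but Gpnmb. When sex was a covariate, the log2 fold changes of Mpeg1, Ms4a7, Ctss and Trem2 fell to 2.70, 2.75, 2.59 and 2.40. Those of Lyz2, Hal and Gpnmb fell to 2.24, 1.95 and 1.39 in that fit. With the kind of column name as a covariate in the first set, which leaves 1 NT mouse of the same kind, 6 of the 10 were called.

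**Figure D2:**
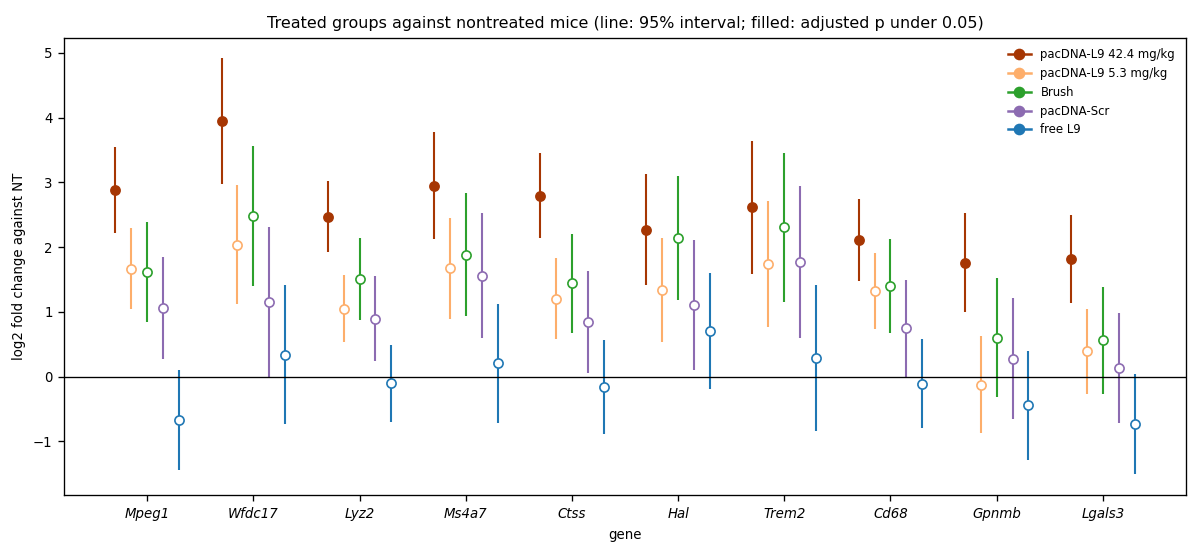
Log2 fold change against NT of each gene for 5 treated groups, on the vertical axis. Lines are 95% intervals and filled points have an adjusted p under 0.05 over all genes tested. All points at 42.4 mg/kg are filled, those of the other groups are open, and the free L9 points lie on both sides of 0.

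At the lowest dose and in the control polymers none of the 10 passed the threshold on its own group. For 5.3 mg/kg, Brush and pacDNA-Scr against NT, edgeR called no gene higher among 17518 tested (0%, 0% and 0%). At an unadjusted p under 0.05, by contrast, there were 8 of the 10 genes among 250 in all at 5.3 mg/kg, 8 among 217 with Brush and 6 among 182 with pacDNA-Scr. DESeq2 called 1, 8 and 0 of the 10 in these comparisons, among 1, 12 and 1 genes higher and 0, 190 and 299 lower. The median log2 fold change of the 10 was 1.33 at 5.3 mg/kg, 1.56 with Brush and 0.98 with pacDNA-Scr, against medians over all genes of 0.03, -0.04 and -0.03. Wfdc17 had the largest value with Brush (2.48, 95% interval 1.40 to 3.56, adjusted p = 0.432) and at 5.3 mg/kg (2.04, 1.12 to 2.95, adjusted p = 0.641). Mpeg1 had 1.67 (1.04 to 2.30) at 5.3 mg/kg, 1.62 (0.85 to 2.39) with Brush and 1.06 (0.26 to 1.85) with pacDNA-Scr. Trem2 had the largest value of the 10 with pacDNA-Scr, 1.77 (0.60 to 2.94, adjusted p = 1.00). Gpnmb was at -0.12 (-0.87 to 0.62) at 5.3 mg/kg and Lgals3 at 0.39 (-0.26 to 1.05).

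The 4 polymer groups that the selection rule did not use were pacDNA-Scr, Brush and pacDNA-L9 at its lowest and highest dose. Their average, with equal weight per group, was higher than NT for 8 of the 10. These 8 genes were the only ones called in either direction by edgeR among the 17518 tested (0.0457%). DESeq2 called 51 genes higher, again 8 of the 10 among them, and 452 lower. The same 8 genes had passed the contrast used for the selection. Both comparisons share the NT mice, so these calls are not independent of the selection. Lyz2 and Mpeg1 had the smallest adjusted p (both 0.00211), with log2 fold changes of 1.48 ± 0.21 and 1.81 ± 0.26. Wfdc17, Ms4a7 and Ctss were raised by 2.40, 2.02 and 1.57 (adjusted p = 0.00574 for each), Cd68 by 1.39 (adjusted p = 0.0118), Trem2 by 2.11 and Hal by 1.71 (both 0.043). Gpnmb (0.63) and Lgals3 (0.72) were not called (both adjusted p = 0.567). Without 42.4 mg/kg, an average chosen after the data had been seen, edgeR, the only tool run on it, called no gene, and the 8 genes had log2 fold changes of 1.15 to 1.94 with adjusted p of 0.165 to 0.350. The call of Trem2 ended when any single mouse but NT mouse 3 was left out (adjusted p up to 0.153), that of Hal when any but NT mouse 3 or 7, mouse B at 5.3 mg/kg or pacDNA-Scr mouse A was (up to 0.287), and that of Cd68 without Brush mouse B or pacDNA-Scr mouse B (0.0602 and 0.0807). The other 5 calls held without each single mouse.

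Mouse by mouse, Mpeg1, Wfdc17 and Ms4a7 were higher in all 11 polymer mice of these groups than in all 8 NT mice, among 9 such genes in all (0.0514%). Against the 8 NT and 3 free L9 mice together only Mpeg1 and Ms4a7 of the 10 were so separated, among 7 genes in all (0.04%). The other 5 genes, chosen after their values were seen, were Cd33, Cd84, Galnt6, Lilrb4b and Myo1f. Both separations use the NT mice of the selection and are likewise not independent of it.

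With free L9 at the lowest nominal dose none of these genes passed the test. Against NT edgeR called 22 genes higher (0.126%) and none of the 10, and none of the 10 had an unadjusted p under 0.05, against 1641 of all genes. DESeq2 called none of the 10 either, among 32 genes higher and 14 lower. The edgeR count of all genes moved with single libraries, to 132 higher and 110 lower without free L9 mouse A, 163 and 151 without mouse C and 35 and 3 without mouse B, and to 13 or 14 higher without NT mouse 2, 3, 4, 6 or 8. None of the 10 was called in any of these cases. Their median log2 fold change was -0.10. The lowest was Lgals3 at -0.74 (95% interval -1.51 to 0.04) and the highest Hal at 0.71 (-0.19 to 1.61), while Mpeg1 was at -0.67 (-1.44 to 0.10). Without free L9 mouse B, whose library stood apart, Hal was at -0.35. The upper ends of the 10 intervals ran from 0.04 to 1.61, so that for part of the genes a rise of the size seen at 5.3 mg/kg pacDNA-L9 lies within the interval.

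Compared directly with free L9, the average of the 4 polymer groups was higher for Mpeg1 (2.47 ± 0.41, adjusted p = 0.00291), Lyz2 (1.58 ± 0.31, 0.0166) and Ctss (1.73 ± 0.38, 0.0375). These are 3 of the 25 genes called higher (0.143%), with 55 lower. All 10 genes had positive values, from 1.00 for Hal to 2.47 for Mpeg1, with a median of 1.65. Cd68 (1.50, adjusted p = 0.0527), Lgals3 (1.46, 0.0823), Ms4a7 (1.81, 0.0832) and Wfdc17 (2.06, 0.096) missed the threshold. All 11 polymer mice were above all 3 free L9 mice for Mpeg1, Lyz2, Ms4a7, Ctss, Trem2 and Lgals3, as for 123 genes in all (0.702%). Without 42.4 mg/kg Mpeg1 alone was called (2.11 ± 0.41, adjusted p = 0.0233). The call of Ctss ended without mouse A or B at 42.4 mg/kg, any single Brush or pacDNA-Scr mouse or free L9 mouse A (adjusted p up to 0.0727). The count of all genes called higher ran from 7 without Brush mouse A to 331 without free L9 mouse A, and it was 293 without free L9 mouse C. Without free L9 mouse B Wfdc17 was called too, with 3.71 (adjusted p = 0.00369).

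At 42.4 mg/kg 8 of the 10 were higher than with free L9, among 367 genes called (2.09%), but dose and polymer differ together in this pair. Mpeg1 had a log2 fold change of 3.56 ± 0.47 (adjusted p = 0.000234), and Hal (1.56, adjusted p = 0.121) and Trem2 (2.33, 0.0575) were not called. The count of genes called higher was 95 without mouse B at 42.4 mg/kg, which also ended the call of Gpnmb (adjusted p = 0.0702), and 793 without free L9 mouse A. In a fit of these 2 groups alone, with 3 mice each, edgeR called no gene, whereas DESeq2 on all groups called 9 of the 10.

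In all 4 pairs of agents were compared, of which 3 were at a matched nominal dose of 5.3 mg/kg. Brush against free L9, the other pair, rests on different dose units, and the study describes the Brush dose as equimolar to pacDNA-L9. For 5.3 mg/kg pacDNA-L9, Brush and pacDNA-Scr against free L9 edgeR called no gene higher (0%, 0% and 0%). At an unadjusted p under 0.05 there were 8, 9 and 4 of the 10, among 1409, 1188 and 951 genes in all. DESeq2 called 2 of the 10 for each of the first and the second of these pairs and none for the last. Mpeg1 came nearest, with a difference of 2.33 (95% interval 1.44 to 3.23, adjusted p = 0.0642) between pacDNA-L9 and free L9, 2.28 (1.30 to 3.27, 0.293) between Brush and free L9 and 1.72 (0.74 to 2.70, 0.703) between pacDNA-Scr and free L9. The Mpeg1 difference between pacDNA-L9 and free L9 passed the threshold without free L9 mouse C (adjusted p = 0.023), and that of Wfdc17 without mouse B (3.34, 0.0401).

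Between the L9 and scrambled oligonucleotides on the same polymer none of the 10 genes passed the test. For 5.3 mg/kg pacDNA-L9 against pacDNA-Scr no gene was called higher (0%), none of the 10 had an unadjusted p under 0.05, against 352 of all genes, and DESeq2 called none of the 10 among 180 genes higher and 1 lower. Differences ran from -0.40 for Gpnmb (95% interval -1.42 to 0.63) to 0.89 for Wfdc17 (-0.49 to 2.27), with Mpeg1 at 0.61 (-0.33 to 1.55). Over the 10 genes the intervals, from 4 and 2 mice, began between -1.43 and -0.31 and ended between 0.63 and 2.27, so the data do not show that the agents act alike.

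Between doses, Lyz2, Ctss and Gpnmb were higher at 42.4 than at 5.3 mg/kg, as 3 of 145 genes called higher (0.828%). Gpnmb differed most of these, by 1.88 ± 0.45 (adjusted p = 0.0348), followed by Ctss (1.59 ± 0.39, 0.04) and Lyz2 (1.42 ± 0.32, 0.0273). Wfdc17 had 1.91 ± 0.56 (adjusted p = 0.112) and Trem2 0.88 ± 0.59 (0.461). All 3 mice at 42.4 mg/kg have columns named by group and running number alone, and no mouse at 5.3 mg/kg does. Dose and kind of column name therefore differ together in this pair. With that kind as a covariate in the first set edgeR called none of the 3 genes (adjusted p = 0.413 to 0.73). The calls also rest on few mice. Leaving out mouse A or B at 42.4 mg/kg or mouse B, C or D at 5.3 mg/kg ended all 3 calls, without mouse A at 5.3 mg/kg Gpnmb alone was called, without mouse C at 42.4 mg/kg Lyz2 and Ctss were called, and in the first set alone none was called (adjusted p = 0.0853 to 0.259). By mean level 42.4 mg/kg was the highest group for 8 genes and 21.2 mg/kg for Hal (13.7 ± 8.05 against 13.4 ± 3.59 CPM, SD, n = 3 each) and Trem2 (3.86 ± 1.96 against 3.80 ± 1.69 CPM), differences far within the spread.

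Between untreated mice of the disease model and WT mice 2 of the genes differed. In NT against WT mice edgeR called 602 genes higher (3.44%) and 269 lower, among them Cd68 with a log2 fold change of 1.51 ± 0.30 (adjusted p = 0.00225) and Lgals3 with 1.08 ± 0.31 (adjusted p = 0.0432). Cd68 ran from 1.18 to 2.71 CPM in WT mice, below all NT mice. The call of Lgals3 was lost without any of 8 single mice, WT 1, 2, 3 or 4 or NT 3, 5, 6 or 8, with adjusted p up to 0.138. Wfdc17 was lowest of the 10 at -0.33 (95% interval -1.23 to 0.57), and the median of the 10 was 0.71.

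Within the deposited sets the groups were compared mouse by mouse, each time beside the share of all genes tested that separated in the same way. In the first set the 2 mice at 5.3 mg/kg were above the 6 NT mice for 6 of the 10 genes and for 5.31% of all genes. In the second set the 2 mice at 5.3 mg/kg were above the 2 NT mice for 9, all but Gpnmb, and for 17.4% of all genes. In the second set Mpeg1 averaged 13.2 CPM at 5.3 mg/kg and 5.07 CPM in NT mice, and Gpnmb 2.96 and 4.73 CPM. Among the libraries with short column names the 3 mice at 42.4 mg/kg were above NT mouse 6 and free L9 mice A and B for all 10 genes, against 8.15% of all genes, with log2 ratios of means from 1.55 to 3.83. The 2 mice given Brush and pacDNA-Scr in these libraries were above the same 3 mice for 8 genes, not for Wfdc17 and Hal, against 8.44% of all genes. Among the first-set libraries with longer names 4 polymer mice were above 5 NT mice for Mpeg1, Wfdc17 and Ms4a7, against 0.816% of all genes, and their means were higher for all 10.

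Part of a list of other macrophage genes rose as well. Of 15 tested genes of macrophage identity, a list without any of the 10, 5 rose at 42.4 mg/kg against NT, namely the complement C1q genes C1qb (1.86 ± 0.31), C1qc (1.52 ± 0.27) and C1qa (1.35 ± 0.28), the scavenger receptor Cd163 and Csf1r (0.90 ± 0.19), which encodes the receptor for macrophage colony-stimulating factor. Adgre1, the gene of F4/80, had 1.51 ± 0.58 (adjusted p = 0.231). The median of the 15 was 0.84, against 2.54 for the selected genes. The selection of the 10, in part for a rise against the same NT mice, favours this gap. The summed level of all 16 genes of the list, tested or not, was 56.2 to 103 CPM in NT mice, 137 to 197 CPM at 42.4 mg/kg and 96.9 to 127 CPM at 5.3 mg/kg. It was 124 and 131 CPM with Brush, 78.6 and 98.6 CPM with pacDNA-Scr and 53.4 to 90.6 CPM with free L9. Against free L9 the polymer average was higher for C1qa (1.73, adjusted p = 0.0137), C1qc (1.36, 0.0476) and Csf1r (0.95, 0.0292). None of the 15 was called for the polymer average against NT. The part of macrophage number in the rise of the 10 genes was not tested.

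**Figure D3:**
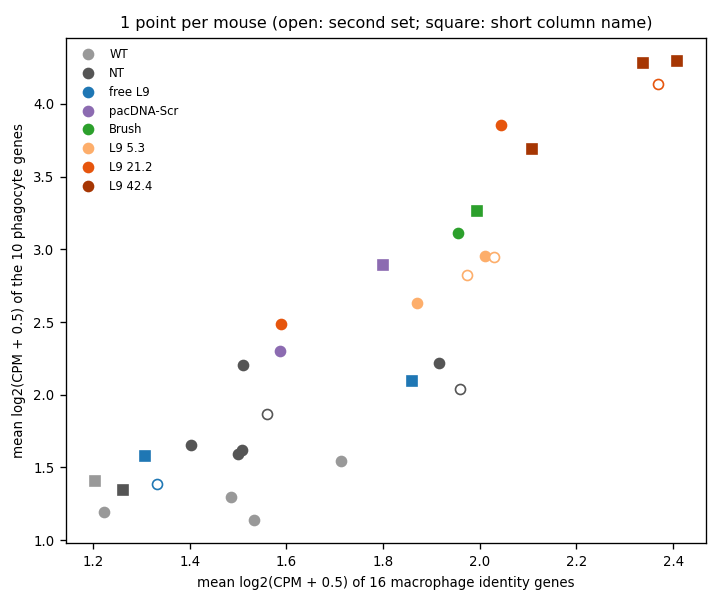
Mean log2(CPM + 0.5) of the 10 phagocyte genes on the vertical axis against that of 16 macrophage identity genes on the horizontal axis, 1 point per mouse, with symbols as in the plot of levels by mouse. NT mice span 1.26 to 1.96 on the horizontal and 1.34 to 2.22 on the vertical axis, and the 42.4 mg/kg mice 2.11 to 2.41 and 3.69 to 4.30.

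The pathway around Trem2 moved in part. Of 10 tested TREM2 signalling genes the adaptor Tyrobp (1.77 ± 0.39, adjusted p = 0.01) and the lipoprotein and Trem2 ligand Apoe (1.68 ± 0.32, adjusted p = 0.00336) rose at 42.4 mg/kg, and the other 8 were not called, for a list median of 0.39. Of 21 tested genes of the lipid-laden state beyond the selected ones 5 rose, Apoe, Atp6v0d2, Ctsb, Lipa (0.92 ± 0.15, adjusted p = 0.000621), the lysosomal acid lipase, and the cathepsin gene Ctsl (0.86 ± 0.18). The remaining 16 were not called, and the median of the list was 0.29. Of 11 tested uptake receptors 3 rose, the integrin gene Itgb2 (2.05 ± 0.39), the Fc receptor gene Fcgr2b (1.87 ± 0.41) and the scavenger receptor gene Stab1 (1.01 ± 0.25). Of 14 inflammatory mediators only 6 had enough counts to be tested and none was called, with a median of -0.68. For the polymer average against NT none of these 4 lists had a gene called.

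**Figure D4:**
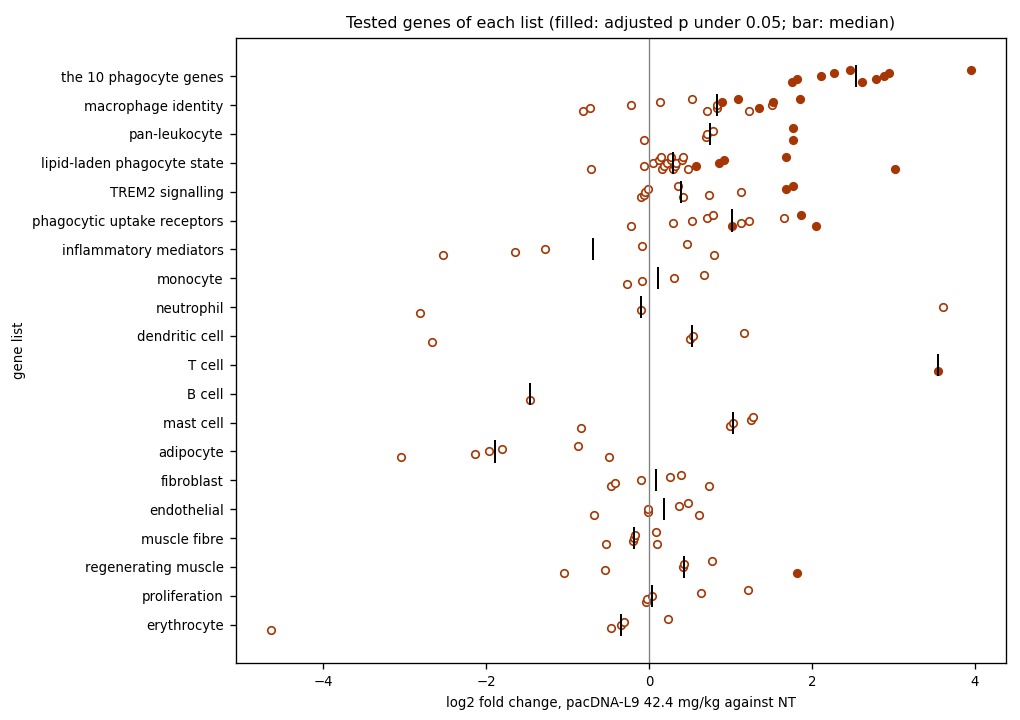
Log2 fold change at 42.4 mg/kg against NT on the horizontal axis for the tested genes of each list, with filled points at an adjusted p under 0.05 and bars at the list median. The 10 phagocyte genes, with a median of 2.54, lie to the right of most points of the other lists. Their selection, in part for a rise against the same NT mice, favours this place. Muscle fibre, endothelial and fibroblast genes lie around 0.

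Markers of other blood and tissue cells were mostly not called at 42.4 mg/kg. Of 6 pan-leukocyte genes Tyrobp and Laptm5 (1.76 ± 0.33) rose, and Ptprc, the gene of CD45, did not pass (0.71, adjusted p = 0.566). None of the tested monocyte (4), neutrophil (3), dendritic cell (4), mast cell (5), B cell (1), adipocyte (6), fibroblast (6), endothelial (6), muscle fibre (6), proliferation (5) or erythrocyte (5) genes was called. The neutrophil marker S100a8 was at 0.234 to 1.89 CPM at 42.4 mg/kg and at 0 to 0.289 CPM in NT mice (adjusted p = 0.117). The monocyte marker Ly6c2 and the B cell marker Cd79a had too few counts to be tested, with at most 0.188 and 0.295 CPM at 42.4 mg/kg. Of the T cell markers Cd4 alone was tested and rose (3.55 ± 0.76), while Cd3e, the defining T cell marker, was at 0.118 to 0.234 CPM in these mice, on at most 6 counts, above the highest NT mouse at 0.0929 CPM. The defining markers of fibroblasts, fat cells and muscle fibres, Col1a1 (-0.42), Adipoq (-1.81) and Ckm (-0.52), had adjusted p of 0.494 to 0.797. Among 6 regenerating muscle genes Myog rose (1.82 ± 0.49, adjusted p = 0.0481). Summed levels of the neutrophil list were at most 4.54 CPM and those of the T cell list at most 1.90 CPM in any mouse, beside 232 to 357 CPM for the 10 genes at 42.4 mg/kg. Other lists were higher. At 42.4 mg/kg the monocyte list was at 15.2 to 21.8 CPM and the B cell list at 28.5 to 64.2 CPM. The monocyte list reached 44 CPM in a free L9 mouse and the B cell list 649 CPM in a WT mouse.

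The genes whose level was most like the average of the 10 over the 24 first-set libraries were C1qc (Pearson's r = 0.924), Laptm5 (0.922), C1qb (0.903), Plek (0.885), Csf1r (0.879), Rnase4 (0.871), Lyz1 (0.862) and Nckap1l (0.849), and over all 30 libraries r was 0.852 to 0.918 for these 8. The libraries fall into groups with and without polymer, so these values are a description. Plek and Lyz1 rose at 42.4 mg/kg (2.02 and 2.41), as did Nckap1l (1.38, adjusted p = 0.0396).

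Reads of near copies can be shared between genes. Lyz1, a close copy of Lyz2, was at 5.66 to 9.05 CPM at 42.4 mg/kg, beside 124 to 189 CPM for Lyz2, and whether they share reads was not tested. Of the MS4A relatives of Ms4a7, Ms4a6b (2.51 ± 0.50), Ms4a6d (2.82 ± 0.57) and Ms4a4a (2.66 ± 0.63) also rose at 42.4 mg/kg, and Ms4a6c was at 1.62 (adjusted p = 0.405). Ctsk, a relative of Ctss, rose by 1.26 ± 0.31 (adjusted p = 0.023). The WAP-domain genes Wfdc18 and Wfdc21 stayed at or below 0.42 CPM in all libraries. Annotated genes on the opposite strand overlap 16.1% of the exon bases of Lyz2, 8.76% of Trem2 and 2.87% of Gpnmb in GENCODE vM39 (GRCm39), and without a stated strand setting reads of such pairs cannot be told apart. The 10 genes are protein-coding and lie on chromosomes 3, 6, 10, 11, 14, 17 and 19 of GRCm39, with Mpeg1 at chr19:12438114-12442649 and Ms4a7 at chr19:11298403-11313510, both on chromosome 19.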

How the data were processed

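Poly(A) RNA of quadriceps was sequenced in 30 libraries, and per the labels the authors aligned the reads with HISAT2 (2.0.5) to the mouse genome GRCm39 and used DESeq2. The values are whole-number counts per gene in 1 table, deposited by the authors without normalization. The study lists Rsubread among its R packages, and the counting tool, strand setting and annotation release are not given in the sources used here. Each library was assigned to its group by its label, and in the table every library column was used.

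Counts were fitted across all 30 libraries with edgeR 4.0.16 in R 4.3.3 (TMM normalization, filterByExpr by group, robust quasi-likelihood test, 1 term per group). Two-sided p-values were adjusted over 17518 genes by Benjamini and Hochberg, with calls at an adjusted p under 0.05. This test, named as the adjusted p throughout, measures the spread between samples, and intervals and SE are on the log2 scale. Each value given per mouse is CPM, with a precision set by 13605309 to 26956558 counts per library. DESeq2 1.42.0, other scalings, filters, covariates, subsets of libraries and single mice left out were tried as alternatives, and the average without or with other pacDNA-L9 doses and DESeq2 on the first set were added after the data had been seen.

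The 10 genes and the other gene lists were chosen with earlier results of these data known, so counts over them are descriptions. Genes named beside the 10 are up to 3 called genes per list with a mean of at least 1 CPM, markers that define a cell type, near copies of the 10 and the 8 genes most like them by Pearson's r. Ctsb, Atp6v0d2, Cd163 and Cd4 were named after their values had been seen. Oligonucleotide sequences were not used here. Promoter letters came from RefSeq (GRCm38.p6), coordinates and exon lengths from GENCODE vM39, in which 56017 of 56748 genes matched by identifier.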

Additional observations from a re-analysis of the deposited data

Results flagged for a closer look

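For each of the 10 genes the WT, NT and 5.3 mg/kg groups were examined for a mouse far from the rest by Dixon's ratio of gap to range. Of 30 such groups 5 had one, where chance gives about 5% for a single group. The 30 are not independent, since the same mice enter for all 10 genes, so an excess over chance cannot be read from this count. NT mouse 3 stood above the other NT mice for Trem2, at 1.93 CPM with the next at 0.926 CPM, and for Gpnmb, at 10.1 CPM with the next at 6.13 CPM. In WT mice the distant values were low ones: Wfdc17 in mouse 2 was at 0.393 CPM with the next at 0.583 CPM, and Ms4a7 in mouse 4 was at 0.350 CPM with the next at 0.477 CPM. Hal in the WT mouse without a number was at 0.925 CPM, with the next at 1.52 CPM.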

How the results depend on the processing

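The count of the 10 genes called changed as follows, and the cause was not tested except where fewer mice or genes entered. At 42.4 mg/kg against NT it was 10, and 6 with the kind of column name as a covariate in the first set. That covariate ended the calls of Hal, Trem2, Gpnmb and Lgals3. The count was 7 with at least 10 counts in every library, and 9 to 10 with single mice left out. That filter on counts left Wfdc17, Ms4a7 and Trem2 untested, here and in the other comparisons. For the polymer average against NT it was 8, then 5 with at least 10 counts in every library, 3 with the column-name covariate, 5 without the 5 libraries whose mitochondrial genes are all at 0, 0 without 42.4 mg/kg and 5 to 8 with single mice left out. For the polymer average against free L9 it was 3, then 7 with the deposited set as a covariate, 7 without the same 5 libraries, 1 with only the groups compared, 8 with DESeq2, 6 with DESeq2 on the first set, 1 without 42.4 mg/kg and 2 to 4 with single mice left out. For 42.4 mg/kg against free L9 it was 8, then 0 with only the groups compared and 7 to 9 with single mice left out. For 42.4 against 5.3 mg/kg it was 3, then 0 with library size alone, in the first set, with the column-name covariate, with genes detected as a covariate and without the 5 libraries, 6 with the set covariate, 6 with DESeq2 and 0 to 2 with single mice left out. For NT against WT it was 2, then 1 with library size alone, with no filter and with the set covariate, each time Cd68, 3 with sex as a covariate, with DESeq2 on the first set and with the replicate block, and 1 to 2 with single mice left out.

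Of comparisons with none called, 5.3 mg/kg against NT had 1 with DESeq2, and Brush against NT had 1 with sex as a covariate, 8 with DESeq2 and 4 with DESeq2 on the first set. Against free L9, 5.3 mg/kg had 1 with library size alone, no filter, at least 10 counts, the first set, the set covariate and DESeq2 on the first set, 2 with DESeq2 and 0 to 1 with single mice left out, Brush had 1 in the first set and with the set covariate and 2 with either DESeq2 fit, and pacDNA-Scr had 1 with DESeq2 on the first set. For pacDNA-Scr and free L9 against NT and for 5.3 mg/kg against pacDNA-Scr none was called in any alternative run.

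Among the fold changes followed through the alternatives, directions reversed for 6, none of them called. Only part of the genes was followed in some comparisons. For free L9 against NT these were Mpeg1, Hal and Lgals3, and for pacDNA-Scr against free L9 Mpeg1 and Hal. For 5.3 mg/kg against pacDNA-Scr they were Mpeg1, Wfdc17 and Gpnmb, and for NT against WT Wfdc17, Cd68 and Lgals3. Reversals of the remaining genes in these comparisons were not examined. Gpnmb at 5.3 mg/kg against NT was at 0.31 in the first set, 0.33 with the column-name covariate, 0.31 without the 5 libraries, 0.32 with DESeq2 on the first set and -0.42 to 0.13 with single mice left out. Against pacDNA-Scr it was at 0.12, 0.22, 0.11 and 0.12 in these same settings. Lgals3 with pacDNA-Scr against NT was at -0.11 with the column-name covariate. Hal with pacDNA-Scr against free L9 was at -0.0198 in the first set, -0.0212 with the column-name covariate and -0.0497 with DESeq2 on the first set. With single mice left out Hal ran from -0.53 to 1.45 in that comparison and from -0.35 to 1.12 for free L9 against NT, and for pacDNA-Scr against NT Gpnmb ran from -0.0512 to 0.53 and Lgals3 from -0.14 to 0.35.

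Groups share letters or numbers in their labels, but they were not taken to pair the mice. Same-lettered pairs had a mean r of 0.149 over 36 pairs, from -0.145 to 0.925, against -0.0632 over 83 pairs of other letters. Same-numbered pairs had a mean of 0.0703 over 4, against -0.024 over 12 pairs of other numbers. Of 17 lettered mice 9 were closest to their own letter, and of 8 numbered mice 4 to their own number. These values do not settle whether the mice were paired. With the replicate block the polymer average against free L9 had 0 of the 10 called and 42.4 against 5.3 mg/kg had 1. Counts over all genes moved too, where those called higher ran from 52 to 527 at 42.4 mg/kg against NT and from 5 to 51 for the polymer average against NT where 42.4 mg/kg was kept, and from 0 to 595 for free L9 against NT. Low counts limit Wfdc17, Ms4a7 and Trem2 in mice without polymer.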
